A study of Mus musculus with 12 samples.

Results

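Bone marrow cells labelled as haematopoietic stem cells were divided by a single transcript, Procr, and the rest of their transcriptome was compared across that divide. A cell counted as Procr-positive with at least 1 unique molecular identifier (UMI) of Procr and as Procr-negative with 0. Of 480 bone marrow wells 423 passed as cells, each with 1000 genes or more, 3000 UMIs or more and a mitochondrial share under 20%. Of these, 202 were Procr-positive and 221 Procr-negative, out of 1020 kept cells in the whole series. The sides were chosen by the measured Procr UMIs, so the level of Procr is given only as a description and it was left out of every comparison.

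The series belongs to a study of DARLIN mice, a line that carries heritable barcodes for tracing clones, and its cells were sorted singly into 96-well plates. Nuclei were removed on magnetic beads and the cytoplasmic polyadenylated RNA was sequenced by scSTRT-seq, so the deposited values are UMI counts per gene and well. Procr-positive and Procr-negative cells come from the same 5 bone marrow plates and differ in no label, treatment or sort. The sources used here give neither the age of the mice, the strain and genotype of each plate, the surface markers of the sort nor any barcode induction, and for plates 4 and 5 the tissue stands only in the plate title. Plates 1 to 3 carry one origin code and plates 4 and 5 another, and nothing says whether a code is 1 animal or a pool. P-values therefore measure the spread between plates, which may be technical.

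Procr encodes the endothelial protein C receptor, also called EPCR or CD201. On endothelium it binds protein C and speeds its activation by thrombin bound to thrombomodulin, and the activated protein C can then signal through protease-activated receptor 1. In mouse bone marrow the receptor is a widely used surface marker of stem cells with long-term repopulating ability, and it has been linked to their retention in the marrow through the integrin VLA-4. The gene lies on chromosome 2 of the mm10 build, from 155751117 to 155755471 on the plus strand. It has up to 4 exons and overlaps 0 other genes of the GENCODE annotation. Reads from neighbours that do not overlap it, or from similar sequences, were not tested.

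Procr was read in 47.8% of bone marrow cells, against 91.4% of fetal liver cells (415 of 454) and 142 of 143 cells of the aorta-gonad-mesonephros region. On plates 1 to 5 the positive cells numbered 27 of 95, 44 of 96, 29 of 71, 50 of 81 and 52 of 80. These are shares of 28.4% (exact binomial 95% interval 19.6 to 38.6%), 45.8% (35.6 to 56.3%), 40.8% (29.3 to 53.2%), 61.7% (50.3 to 72.3%) and 65.0% (53.5 to 75.3%), and the intervals cover counting error only. Plates 4 and 5 thus had more positive cells than negative cells, and plates 1 to 3 fewer.

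The amount of Procr varied widely inside the positive cells. Of the 202, 71 held exactly 1 Procr UMI, 37 held 2 to 5 and 94 held more than 5. The 94 cells with more than 5 carried 93.6% of all 2844 Procr UMIs. The highest cell of each plate had 103, 115, 80, 35 and 47 UMIs on plates 1 to 5. The boundary of the positive class, 1 UMI against 0, therefore runs through the low end of a broad distribution. The 57 wells that failed the filter, at far lower depth, held 2 Procr UMIs in 2 wells. The plot of Procr UMIs per cell shows the cells at 1 UMI as a separate row just above the negative cells.

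**Figure D1:**
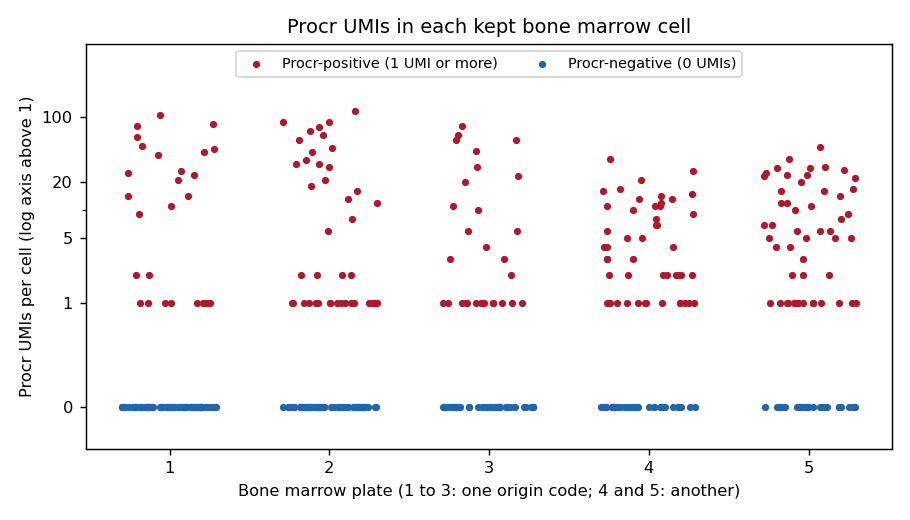
Procr UMIs in each of the 423 kept bone marrow cells (vertical axis, logarithmic above 1) by plate. Red points are the 202 Procr-positive cells and blue points the 221 Procr-negative cells, spread sideways at random within a plate; 71 of the red points lie at exactly 1 UMI.

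Cells with more RNA have more chances to show a rare transcript, so the sides were matched on total UMIs. On each plate Procr-positive cells were paired 1 to 1 with Procr-negative cells within 0.1 of a log10 unit, which gave 25, 38, 28, 27 and 26 pairs on plates 1 to 5 and 144 in all. The matched cells of a plate and side were then summed. The sums held 838954 to 3103710 UMIs for positive cells and 853581 to 3011255 for negative cells. Unless another scale is named, a level below is the CPM of such a sum (UMIs scaled by library size and the TMM method). A fold change is the log2 ratio of Procr-positive over Procr-negative cells. The value after ± beside a fold change is a standard error from the edgeR count model of the 5 plates. Its dispersion is moderated across genes, so it is not the spread of that gene's plate differences alone.

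Most of the usual genes of stem cells were read in many cells, and some in few. Over the 423 cells a UMI of Ly6a (Sca-1) was found in 86.8%, of Hlf in 67.1% and of Kit in 66.7%. Mecom was found in 53.0% and Ptprc (CD45) in 45.2%. Slamf1 (CD150) was found in 11.4% and Fgd5 in 4.49%, while Flt3 and Cd48, which are low on stem cells, were found in 17.7% and 8.27%. Cd34, which is low on the most dormant mouse stem cells, was nevertheless found in 72.6%. Cdh5, Cd3d, Cd14, C1qa and Cxcl12, defining markers of endothelium, T cells, monocytes, macrophages and stroma, were at 0 on every plate. Other members of such lists were read, among them Nkg7 in 36.9% of cells, Cd79b in 33.3%, S100a8 in 18.7%, Lck in 16.8% and Pecam1 in 14.7%. Close partners of the markers at 0 were read in few cells. C1qb and C1qc were each found in 2.6%, Adgre1 in 1.89%, the stromal collagen Col1a2 in 2.36% and Cd3g in 1.42%. The 15 endothelial genes ran from 233 to 356 CPM in positive sums and from 245 to 485 CPM in negative sums, mostly from Egfl7, which stem cells also express. The 9 red cell genes ran from 87.5 to 364 CPM in positive and from 77.1 to 327 CPM in negative sums, and of these Hbb-bt was found in 59.1% of cells. The B cell list ran from 25.1 to 92.5 CPM in positive and from 65.3 to 137 CPM in negative sums, and the T and NK cell list from 41.4 to 184 CPM in positive and from 49.15 to 141.5 CPM in negative sums. The macrophage and granulocyte list ran from 1.39 to 195 CPM in positive and from 1.35 to 108 CPM in negative sums. Mast cell and basophil genes ran from 0 to 22.9 CPM in positive and from 0 to 2.27 CPM in negative sums, and stromal genes from 0.373 to 4.43 CPM in positive and from 0 to 20.3 CPM in negative sums. The part of these lists in other results was not tested. The same 96 well barcodes were used on all 12 plates, and exchange between plates was not tested.

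No gene passed the test. Of 8580 genes tested with edgeR's quasi-likelihood test, 0 were higher and 0 lower in Procr-positive cells at an adjusted p under 0.05 (0% called), the smallest adjusted p was 1, and 253 genes (2.95%) had an unadjusted p under 0.05. DESeq2, run on the same sums, called 51 genes (0.594%; 17 higher and 34 lower), and limma-voom called 3 (0.035%), all lower. Procr-positive and Procr-negative sums differed in the same direction on all 5 plates for 503 genes (5.86%), 265 of them higher (3.09%) and 238 lower (2.77%). The median fold change of all tested genes was 0.02 (log2), and 51.2% lay above 0.

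How closely a fold change was estimated depended on the level of the gene. For 291 genes at 500 CPM or more, the median half-width of the 95% interval of the fold change was 0.21 (log2), and for all 291 the interval lay inside 1 log2 unit, or 2-fold, in either direction. For the 1457 genes between 100 and 500 CPM the half-width was 0.61, and 72.2% had such an interval. For the 4110 genes between 20 and 100 CPM it was 1.54, and 2.2% had one. Among the 59 tested genes of the 3 stem cell lists it was 0.84, and 28 had one. The plot of fold change against level shows this funnel. These intervals are not adjusted for the number of genes, so they do not give the chance of a call. In simulated sums of the same design, changed genes were drawn above a minimum mean count. There edgeR called 38.3% of 94 genes with a true change of 2 log2 units in either direction. It called 8% of 100 genes with a true change of 1 log2 unit, so 0 calls do not show that no gene differed by as much.

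**Figure D2:**
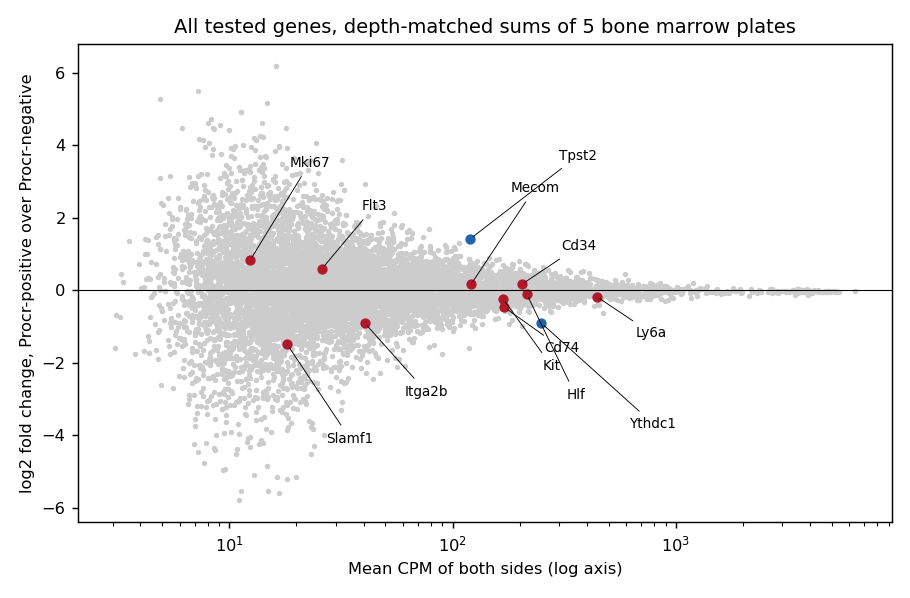
Log2 fold change of Procr-positive over Procr-negative cells (vertical axis) against mean CPM of both sides (horizontal axis, logarithmic) for the 8580 tested genes in grey. Red points mark stem cell and lineage genes and blue points Tpst2 and Ythdc1, the 2 genes of smallest p; the spread narrows with level and 0 genes passed the test.

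No gene of the surface receptors used beside Procr to isolate stem cells was called. Of 22 listed surface genes 20 were tested, 0 passed, 9 lay above 0, and the median fold change was -0.02, against 0.02 for all tested genes. Ly6a, the Sca-1 antigen, had 586, 340, 295, 435 and 403 CPM in positive cells of plates 1 to 5, against 532, 587, 248, 412 and 591 CPM in negative cells. It was higher in positive cells on 3 plates and lower on 2, and the sides overlapped. Its fold change was -0.17 ± 0.17 (95% interval -0.53 to 0.18), with a UMI in 128 matched positive and 128 matched negative cells of 144 each.

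Kit, the receptor for stem cell factor, had 169, 94.1, 246, 153 and 108 CPM in positive cells, against 299, 180.3, 141, 89.0 and 209.8 CPM in negative cells. Positive cells were lower on plates 1, 2 and 5 and higher on plates 3 and 4, and the fold change was -0.24 ± 0.32 (interval -0.91 to 0.42). Cd34, a sialomucin that is low on the most dormant mouse stem cells, averaged 217 ± 50.6 CPM in positive and 192 ± 33.6 CPM in negative cells (SD, n = 5 plates each), with a fold change of 0.16 ± 0.23 (interval -0.32 to 0.65). A UMI of Cd34 was found in 111 positive and 93 negative cells.

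Slamf1, Cd48 and Flt3, which divide stem cells from multipotent progenitors, were too sparse for a close comparison. Slamf1 averaged 12.6 CPM in positive and 23.7 CPM in negative cells (-1.49 ± 1.26, interval -4.12 to 1.14), from 14 positive and 17 negative cells with a UMI. Cd48 averaged 18.0 CPM in positive and 20.2 CPM in negative cells (-0.02 ± 1.42), and Flt3 averaged 25.3 CPM in positive and 26.8 CPM in negative cells (0.60 ± 0.94). Cd27, a receptor of the tumour necrosis factor family, averaged 269 ± 81.2 CPM in positive and 193 ± 61.8 CPM in negative cells and was higher on 4 of 5 plates (0.49 ± 0.24, adjusted p = 1 by edgeR). Robo4, a receptor tied to stem cell homing, averaged 15.2 CPM in positive and 5.98 CPM in negative cells (1.53 ± 1.23). The intervals of these sparse genes reach far to either side of 0, as the plot of intervals shows.

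**Figure D3:**
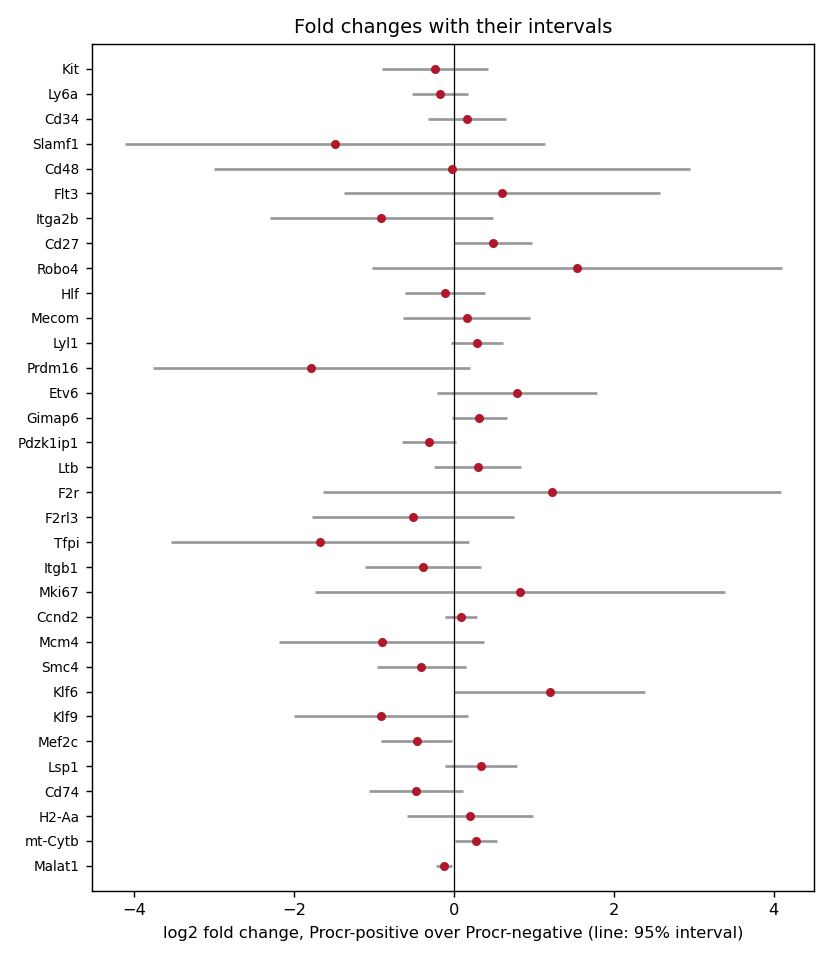
Log2 fold change of Procr-positive over Procr-negative cells (red points) with its 95% interval (grey lines) for 33 genes, ordered from surface receptors at the top through transcription factors, the thrombin receptor pathway, cell cycle and lineage genes. Kit, Ly6a and Cd34 have intervals inside 1 log2 unit of 0, and Slamf1, Cd48 and Flt3 do not.

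Among transcription factors of self-renewal, 25 of 28 were tested, 0 passed and 14 lay above 0 (median 0.04). Hlf, a leucine zipper factor of quiescent stem cells, had 255, 145, 233, 165 and 236 CPM in positive cells, against 223, 239, 318, 167 and 171 CPM in negative cells. The sides overlapped, and its fold change was -0.11 ± 0.24 (interval -0.61 to 0.39). Mecom, which encodes EVI1, had 69.4, 65.3, 114, 204 and 202 CPM in positive cells, against 60.2, 139.8, 139.9, 64.7 and 149.7 CPM in negative cells (0.16 ± 0.38, interval -0.63 to 0.95). On plates 4 and 5 positive cells were the higher side for Mecom, and on plates 2 and 3 the lower.

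Among the 25 tested factors, 1 was higher and 1 lower in positive cells on all 5 plates, and neither passed the test. The shares of all tested genes were 3.09% higher and 2.77% lower on all 5 plates. Lyl1, a basic helix-loop-helix factor of the stem cell network, had 383, 371, 464, 421 and 451 CPM in positive cells, against 300.5, 371, 348, 298 and 398 CPM in negative cells (0.29 ± 0.16, adjusted p = 1 by edgeR). On plate 2 the sides were almost equal. Prdm16, a zinc finger factor needed for stem cell maintenance, had 4.85, 0.653, 25.4, 27.8 and 10.9 CPM in positive cells, against 14.0, 17.8, 37.7, 39.1 and 57.8 CPM in negative cells (-1.78 ± 0.95). It was sparse, with a UMI in 22 positive and 24 negative cells, and 1 positive cell held 53.4% of the positive UMIs.

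The published MolO genes, which mark the molecular state shared by marrow populations enriched for stem cells, gave no call either. Of 17 tested members of 30, 0 passed and 7 lay above 0 (median -0.04). Gimap6, a GTPase of the immunity-associated family, averaged 482 ± 184 CPM in positive and 387 ± 170.5 CPM in negative cells and was higher on all 5 plates (0.32 ± 0.16). Pdzk1ip1, a small membrane protein used as a stem cell reporter in mice, averaged 344 ± 123 CPM in positive and 429 ± 152 CPM in negative cells and was lower on 4 plates (-0.31 ± 0.16). Vwf, von Willebrand factor, was below the filter and was found in 7 positive and 9 negative cells.

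Partners of the receptor itself mostly lay below the filter on low counts. Of 23 listed genes of the protein C and protease-activated receptor pathway, 5 were tested, 0 passed, and the median was -0.02. F2r, which encodes protease-activated receptor 1, averaged 9.73 ± 6.27 CPM in positive and 5.74 ± 5.71 CPM in negative cells (1.23 ± 1.37). F2rl3, protease-activated receptor 4 of platelets, averaged 45.2 ± 27.9 and 59.0 ± 25.5 CPM in positive and negative cells (-0.51 ± 0.60). Tfpi, the tissue factor pathway inhibitor, averaged 26.4 ± 36.8 and 51.1 ± 33.1 CPM in positive and negative cells (-1.68 ± 0.89). On plate 2 positive cells had 90.8 CPM of Tfpi and negative cells 34.6 CPM, and on the other 4 plates positive cells were lower. For homing and retention, 16 of 21 genes were tested, 0 passed and 9 lay above 0 (median 0.07). Itgb1, the beta chain of VLA-4, averaged 110 ± 34.4 CPM in positive and 146 ± 68.1 CPM in negative cells (-0.39 ± 0.35, interval -1.12 to 0.34). Itga4, its alpha chain, went the other way. In a fit of bone marrow and fetal liver together, Itga4 averaged 48.2 CPM in positive and 29.5 CPM in negative bone marrow cells (log2 fold change 0.61).

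**Figure D4:**
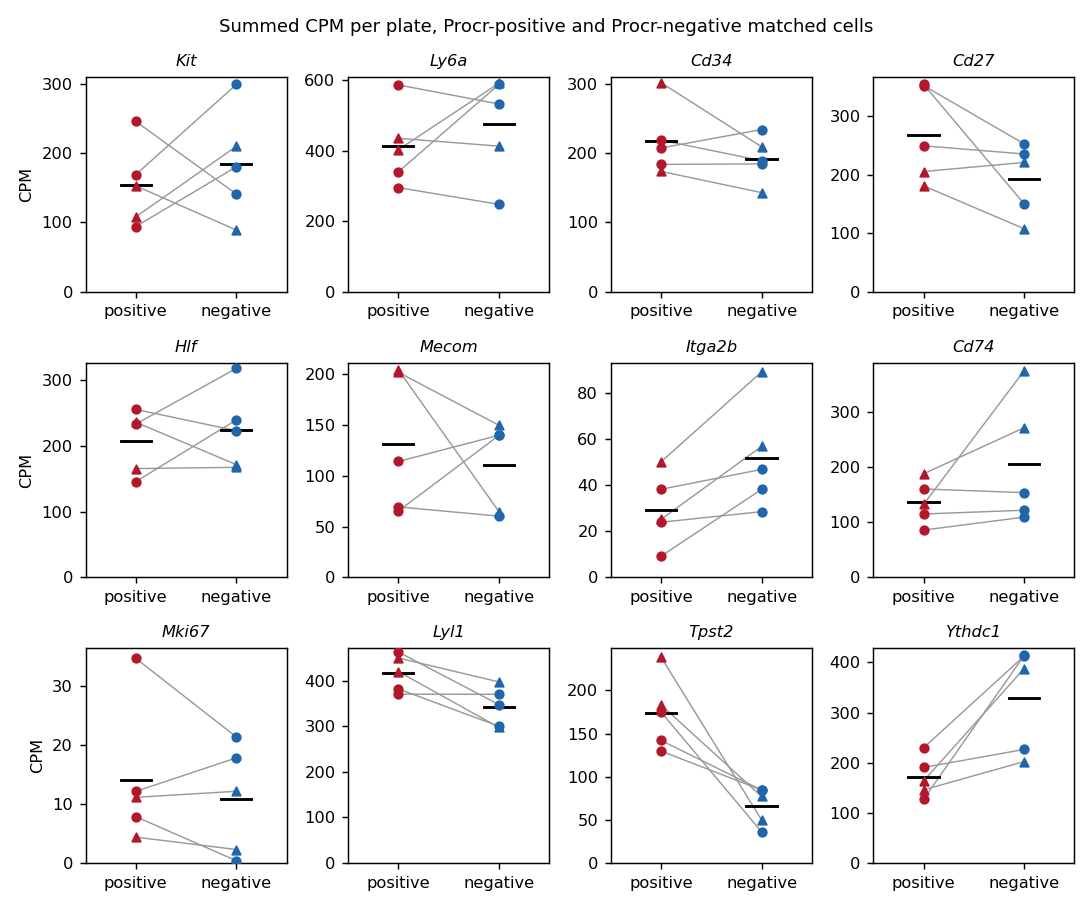
CPM of 12 genes in the summed matched cells of each plate, Procr-positive (red, left) and Procr-negative (blue, right). Grey lines join the sides of a plate, circles are plates 1 to 3, triangles plates 4 and 5, and black bars the means of 5 plates; lines cross for Kit, Ly6a, Hlf and Mecom, and run the same way on all plates for Itga2b, Lyl1, Tpst2 and Ythdc1.

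No gene of the cell cycle was called. Of 35 tested S phase genes 15 lay above 0 (42.9%, median -0.11), and of 28 tested G2 and M phase genes 11 lay above 0 (39.3%, median -0.21), against 51.2% of all tested genes. A matched cell thinned to 10000 UMIs held a UMI of 7.002 S phase genes on the positive side and 6.69 on the negative side, higher on 2 plates, lower on 2 and equal on the other (exact sign-flip permutation p = 0.5). Without thinning the numbers were 12.8 on the positive side and 11.7 on the negative side, higher on 5 of 5 plates (exact p = 0.0625, the smallest possible). In each of the 2 lists 1 gene was lower on all 5 plates, against 2.77% of all tested genes. Mcm4, a subunit of the replicative helicase, was that gene of the S phase list, at 32.9 ± 12.3 CPM in positive and 58.7 ± 5.11 CPM in negative cells (-0.91 ± 0.61). Its UMIs came from 33 positive and 35 negative cells. Cdca3, a mitotic entry factor, was that gene of the G2 and M phase list, at 14.0 ± 8.11 and 32.8 ± 19.7 CPM in positive and negative cells (-1.19 ± 0.90). It was read in 31 cells of each side, and 1 negative cell held 33.3% of the negative UMIs. Smc4, a condensin subunit, averaged 172 ± 31.2 CPM in positive and 237 ± 81.4 CPM in negative cells (-0.41 ± 0.27). Ccnd2, the main D-type cyclin here, was abundant on both sides at 1032 ± 191 CPM in positive and 983 ± 221 CPM in negative cells, and its interval was narrow (0.09 ± 0.09, interval -0.11 to 0.29).

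Mki67, the proliferation antigen, had 7.83, 34.6, 12.1, 11.1 and 4.36 CPM in positive cells, against 0.370, 21.3, 17.8, 12.1 and 2.27 CPM in negative cells (0.82 ± 1.22). To compare shares at equal depth, the same thinned cells were used. A UMI of Mki67 was then found in 6.06% of positive and 5.64% of negative cells on average over plates, a difference of 0.416 percentage points (exact sign-flip permutation over 5 plates, two-sided p = 1, where the smallest p possible is 0.0625). Without thinning the shares were 17.1% and 10.8% in positive and negative cells, higher in positive cells on all 5 plates (difference 6.37 points, exact p = 0.0625). With at least 2 Procr UMIs required of positive cells, the thinned difference was -3.56 points (exact p = 0.25). Leaving out 1 plate moved the thinned difference between -1.27 and 2.44 points, so its direction was not settled.

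Genes of dormancy and of the immediate early response were scattered. Of 18 tested genes of quiescence and cyclin inhibition 9 lay above 0 (median -0.03), and of 14 tested immediate early genes 10 lay above 0 (median 0.37), with 0 passing. Klf6, a Kruppel-like factor in both lists, was higher on all 5 plates at 40.3, 45.7, 107, 90.3 and 85.1 CPM in positive cells, against 19.96, 34.6, 29.9, 60.7 and 18.1 CPM in negative cells (1.20 ± 0.57, adjusted p = 1 by edgeR). Its UMIs came from 29 positive and 24 negative cells. Klf9, another factor of the family, averaged 48.8 ± 30.2 CPM in positive and 81.6 ± 38.0 CPM in negative cells (-0.92 ± 0.52).

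No gene of the lineage programmes was called. Of 17 tested genes of the megakaryocyte and platelet list 4 lay above 0 (23.5%, against 51.2% of all tested genes, median -0.28), and 3 were lower on all 5 plates, against 2.77% of all tested genes. Itga2b, the alpha chain of the platelet fibrinogen receptor (CD41), had 23.9, 9.15, 38.1, 49.99 and 25.1 CPM in positive cells, against 28.5, 38.1, 46.7, 89.0 and 56.7 CPM in negative cells. Positive cells were lower on every plate although the ranges overlapped, and the fold change was -0.91 ± 0.67 (interval -2.31 to 0.49). It was -0.45 with all cells, -0.06 with all cells and mean log2 UMIs as a covariate, -0.12 after matching on genes, -0.22 with at least 2 Procr UMIs and 0.14 with more than 5. Its 280 UMIs in positive and 457 UMIs in negative cells came from 45 and 43 cells, and 1 positive cell held 34.3% of the positive UMIs. Treml1, a receptor of platelet alpha granules, averaged 1.47 ± 1.68 CPM in positive and 16.03 ± 6.35 CPM in negative cells (-3.99 ± 1.38), from 7 positive and 10 negative cells. Rab27b, a GTPase of granule secretion, averaged 21.2 ± 18.9 CPM in positive and 46.2 ± 22.9 CPM in negative cells (-1.69 ± 0.83). These are the 3 genes lower on every plate. After thinning, a matched cell held a UMI of 3.15 genes of the megakaryocyte and platelet list on the positive side and 3.19 on the negative side. The positive side was higher on 3 plates and lower on 2 (exact sign-flip permutation p = 0.6875). Without thinning the numbers were 5.80 on the positive side and 5.56 on the negative side. The positive side was again higher on 3 plates and lower on 2 (exact sign-flip permutation p = 0.375).

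Of 13 tested genes of the lymphoid and multipotent progenitor list 8 lay above 0 (61.5%, against 51.2% of all tested genes, median 0.25), 0 passed and 0 were higher on all 5 plates. Lsp1, a leukocyte actin-binding protein, averaged 355 ± 108 CPM in positive and 290.1 ± 121 CPM in negative cells (0.34 ± 0.21). Mef2c, a factor of lymphoid and megakaryocyte fate, averaged 258 ± 99.99 CPM in positive and 338 ± 58.0 CPM in negative cells (-0.47 ± 0.21). After thinning, a cell held a UMI of 3.58 ± 0.286 of the 24 listed genes on the positive side and of 3.05 ± 0.395 on the negative side (SD, n = 5 plates). The positive side was higher on 5 of 5 plates (exact sign-flip permutation p = 0.0625, the smallest possible, and 0.65 adjusted over 26 measures per cell). In the erythroid list 3 of 9 tested genes lay above 0 (median -0.21), and in the myeloid list 7 of 12 did (median 0.05). Car2, carbonic anhydrase 2, averaged 1178 ± 273 CPM in positive and 1101 ± 331 CPM in negative cells (0.11 ± 0.09, interval -0.07 to 0.30). Spi1, the myeloid factor PU.1, averaged 249.8 ± 69.3 CPM in positive and 203 ± 31.9 CPM in negative cells (0.28 ± 0.23).

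No gene of antigen presentation or the interferon response was called. Of 9 tested class II genes 6 lay above 0 (median 0.09), of 18 class I genes 8 (median -0.01) and of 34 interferon genes 18 (median 0.03), with fold changes of the interferon genes from -3.43 to 2.55. Cd74, the class II invariant chain, had 160, 85.6, 115, 187 and 132 CPM in positive cells, against 153, 109, 122, 271 and 374 CPM in negative cells (-0.47 ± 0.28, interval -1.06 to 0.12). The fold change was -0.12 without plates 4 and 5, -0.27 after matching on genes, -0.09 with the stricter filter on genes per cell and 0.08 with all cells and mean log2 UMIs as a covariate. H2-Aa, a class II alpha chain, averaged 139 ± 33.2 CPM in positive and 147 ± 106 CPM in negative cells (0.20 ± 0.38). Psmb8, an immunoproteasome subunit, averaged 672 ± 63.1 CPM in positive and 602 ± 53.1 CPM in negative cells (0.16 ± 0.11, interval -0.08 to 0.39).

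**Figure D5:**
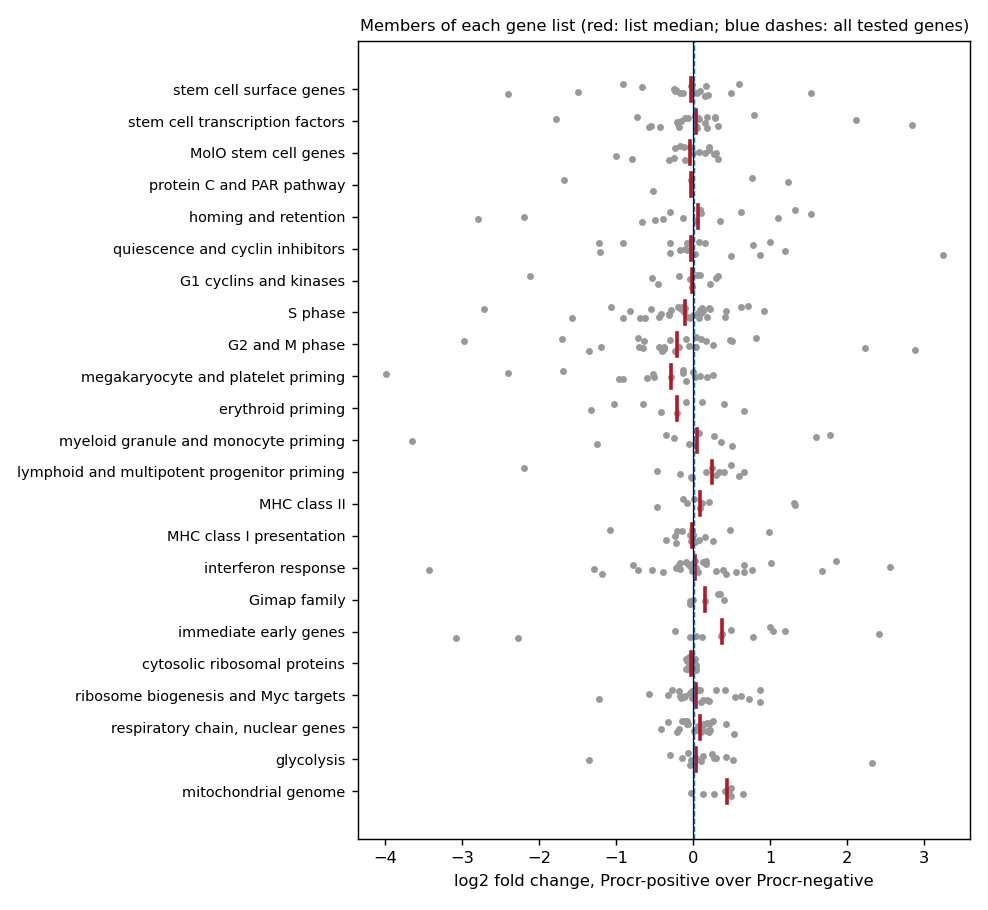
Log2 fold change of Procr-positive over Procr-negative cells for the tested members (grey points) of each gene list with at least 5 tested. Red bars are list medians, from -0.28 for megakaryocyte and platelet priming to 0.44 for the mitochondrial genome, and the blue dashed line is the median of all tested genes (0.02).

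No transcript of the mitochondrial genome or of the cytosolic ribosome was called. Of 8 tested mitochondrial genes 7 lay above 0 (87.5%, against 51.2% of all tested genes, median 0.44). By edgeR 4 had an unadjusted p under 0.05, against 2.95% of all tested genes, and 0 passed after adjustment. mt-Cytb, cytochrome b of complex III, had 610, 759, 738, 405 and 403 CPM in positive cells, against 473, 605, 642, 376 and 312 CPM in negative cells (0.28 ± 0.13). It was the only 1 of the 8 that was higher on all 5 plates. The mitochondrial share of UMIs was small on both sides, with plate medians averaging 0.179% in positive and 0.143% in negative cells (higher on 4 of 5 plates, exact p = 0.125), and its part in other results was not tested. Of 53 ribosomal protein genes 43 lay below 0 and 18.9% above it, against 51.2% of all tested genes above 0. Their median fold change was only -0.03. Malat1, a nuclear long non-coding RNA, averaged 3751 ± 781 CPM in positive and 4083 ± 807 CPM in negative cells, lower on 4 of 5 plates (-0.12 ± 0.05, adjusted p = 1 by edgeR).

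The 24 genes of smallest p with at least 20 CPM on one side give the outer edge of the comparison, and none was called by edgeR. Their unadjusted p-values ran from 0.00113 to 0.0083, 9 lay above 0 and 15 below, and DESeq2 called 15 of them. Tpst2, a tyrosylprotein sulfotransferase of the Golgi, had 129.8, 175, 142, 239 and 183 CPM in positive cells, against 84.6, 35.99, 84.4, 49.9 and 77.1 CPM in negative cells. The ranges did not overlap (1.42 ± 0.36, interval 0.66 to 2.18), and a UMI was found in 96 positive and 56 negative cells of 144 each. Ythdc1, a nuclear reader of N6-methyladenosine in RNA, had 127, 190.5, 229.6, 146 and 164 CPM in positive cells, against 414, 226, 413, 202 and 388 CPM in negative cells. It was lower in positive cells on every plate, although the ranges of the sides overlapped (-0.90 ± 0.23, interval -1.39 to -0.42). A UMI of Ythdc1 was found in 76 positive and 86 negative cells.

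Other genes of that group had smaller differences or were read in fewer cells. Etfb, a subunit of the electron transfer flavoprotein, averaged 455 ± 71.0 CPM in positive and 316 ± 65.6 CPM in negative cells and was higher on all 5 plates (0.53 ± 0.15). Anxa1, annexin A1, averaged 252 ± 65.5 CPM in positive and 145 ± 46.4 CPM in negative cells, again higher on 5 of 5 (0.80 ± 0.24). Emc4, of the endoplasmic reticulum membrane protein complex, averaged 90.9 ± 24.1 CPM in positive and 28.2 ± 14.9 CPM in negative cells, from 58 positive and 33 negative cells with a UMI (1.79 ± 0.54). Tnrc6b, a GW182 protein of microRNA silencing, averaged 146 ± 85.7 CPM in positive and 262 ± 75.6 CPM in negative cells (-0.99 ± 0.27). Fau, which encodes ribosomal protein S30, averaged 3249 ± 1196 CPM in positive and 3617 ± 1427 CPM in negative cells and was lower on every plate by a small margin (-0.14 ± 0.04). Vezt, Plod2 and Cep95 had fold changes of -3.99, -5.53 and -5.15, but a UMI of each was found in at most 22 matched cells per side.

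Procr-positive cells also showed more genes after matching on total UMIs within 0.1 of a log10 unit, but not on every plate at equal depth. On plate 3 the matched cells still had medians of 111558 UMIs on the positive side and 98058 on the negative side. Plate medians averaged 2788 ± 552 genes in positive and 2485 ± 485 genes in negative matched cells (SD, n = 5 plates each), a difference of 303.8 that had the same sign on all 5 plates (exact sign-flip permutation p = 0.0625, the smallest possible). After thinning each cell to 10000 UMIs the medians averaged 1640 ± 119 genes in positive and 1552 ± 134 genes in negative cells. That difference of 88.1 genes was positive on 3 plates and negative on 2 (exact p = 0.25). Genes detected bear on whether a rare transcript is seen, and matching on genes in place of UMIs gave 156 pairs and again 0 genes called by edgeR (236 with an unadjusted p under 0.05).

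The thresholds for a positive cell did not bring out calls. With at least 2 Procr UMIs against 0 there were 109 pairs and 0 genes called by edgeR (212 with an unadjusted p under 0.05), and with more than 5, a threshold added after the Procr counts were seen, there were 91 pairs and 0 called (173 unadjusted). Positive cells above their plate's median Procr CPM gave 0 called (172 unadjusted), and those at or below it gave 0 called (195 unadjusted). DESeq2 and limma-voom were run only on the matched sums with at least 1 Procr UMI.

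The 2 origins differed in how often Procr was read, without a test that could reach the threshold. Plates 4 and 5 had 63.4 ± 2.31% positive cells (SD, n = 2 plates) and plates 1 to 3 had 38.4 ± 8.97% (n = 3 plates), and the ranges did not overlap (exact permutation p = 0.2, the smallest possible with 2 against 3 plates). Plates 4 and 5 were the shallower ones, with plate medians averaging 34454 UMIs per cell, against 83030 on plates 1 to 3. After thinning to 10000 UMIs the shares were 44.2 ± 6.35% on plates 4 and 5 and 22.1 ± 3.46% on plates 1 to 3. As CPM over all kept cells Procr stood at 140.5 ± 20.6 on plates 4 and 5 and 81.2 ± 32.3 on plates 1 to 3. UMIs per detected gene averaged 14.8 on plates 4 and 5 and 33.3 on plates 1 to 3, and Xist had 0 UMIs on plates 4 and 5 and 1100 on plates 1 to 3. The Y chromosome genes Ddx3y, Eif2s3y, Kdm5d and Uty together had 705 UMIs on plates 4 and 5 and 4 on plates 1 to 3. Origin, depth, sex transcripts and the completeness of the tissue label cannot be told apart here. The Procr split itself was tested for a difference between the origins, and 0 of 8580 genes (0%) passed by edgeR's interaction test, with 316 at an unadjusted p under 0.05.

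In fetal liver, where few cells lacked Procr, the same split could be made on plates 1, 3 and 4 with 7, 15 and 7 pairs. There 0 of 9676 genes (0%) were called by edgeR (497 with an unadjusted p under 0.05), and 0 of 9676 (0%) differed in their split between bone marrow and fetal liver (409 unadjusted). Ly6a came nearest. In fetal liver it had 104, 141 and 201 CPM in positive cells of plates 1, 3 and 4, against 6.32, 90.5 and 34.7 CPM in negative cells. The ranges did not overlap, and the fold change was 2.07 ± 0.39 (adjusted p = 0.0657 by edgeR). In bone marrow, in the same fit, Ly6a averaged 413 CPM in positive and 479 CPM in negative cells, a fold change of -0.18. The difference between the tissues was -2.26 ± 0.47 (adjusted p = 0.283 by edgeR). It passed when all cells were summed without matching (-2.59, adjusted p = 0.00556), when genes of low counts were kept (-2.30, adjusted p = 0.00302) and without fetal liver plate 3 (-3.16, adjusted p = 2.44e-06), and over the other 8 alternatives its adjusted p ran from 0.0903 to 1 with the difference always below 0.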

How the data were processed

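Single cells of 12 plates were measured by scSTRT-seq of cytoplasmic polyadenylated RNA, per the labels' protocols. The authors deposited raw UMI counts per gene symbol and well, 1 table per plate. The submitters' processing notes name mm10 and the tools featureCounts, SAMtools and UMI-tools. The sources used here give no versions and no strand setting, so antisense, overlapping and near-identical genes may share reads. Of 22306 gene symbols other than Procr 98.1% matched the mouse gene names at hand, and 0 columns of other samples were set aside. No doublet caller was run, since cells were sorted singly.

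Kept wells were split by Procr, matched on log10 UMIs by optimal assignment and summed per plate and side (at least 5 pairs a plate). edgeR 4.0.16 (R 4.3.3) gave the quasi-likelihood test with plate as a block, TMM normalization, filterByExpr and Benjamini-Hochberg adjustment over all 8580 tested genes, with 4 residual and 14.7 prior degrees of freedom; the common biological coefficient of variation was 0.817. The script was tested on simulated data. Both sides of a plate come from the same plate, which is where the pairing comes from. Deviations of same-plate sums correlated at 0.0369, 0.0718, 0.102, 0.127 and 0.133 on plates 1 to 5, and on plate 1 the highest correlation with another plate was 0.0381. Bone marrow cells had a median of 59560 UMIs (4619 to 374594). Per-cell shares and gene numbers were taken from cells thinned to 10000 UMIs and tested by exact sign-flip permutation over plates. The exact binomial intervals and the permutation between origins came from scipy 1.17.1. DESeq2 1.42.0, limma 3.58.1, other matchings, thresholds, filters and left-out plates were alternatives.

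The members and the 31 gene lists were chosen with earlier results of these data known. Genes named are the 24 of smallest p with at least 20 CPM, since none was called, up to 4 of smallest p in each list, and 13 stem cell and lineage markers. Not every gene the rule named is given.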

Additional observations from a re-analysis of the deposited data

Results flagged for a closer look

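Of 94 sets of 5 plate values examined, most of them differences between the sides, 5 had 1 plate far from the other 4. That is close to the 1 in 20 that chance flags. Values are log2 ratios of CPM + 1, Procr-positive over Procr-negative. Gimap6 stood at 1.04 on plate 1, against 0.0101 to 0.295 on the other plates, so its direction was shared by all 5 plates but its size came from plate 1. Treml1 stood at -0.314 on plate 5, against -4.01 to -3.06 elsewhere. mt-Co1, a subunit of cytochrome c oxidase, stood at -0.416 on plate 4, against 0.540 to 0.838 elsewhere. Hbb-bt, adult beta globin, stood at 2.80 on plate 5, against -0.274 to 0.146 elsewhere. Irf8, a factor of monocyte fate, stood at 4.79 on plate 3, against -4.17 to -1.77 elsewhere, with a UMI in 6 positive and 7 negative matched cells.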

How the results depend on the processing

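The count of 0 genes called by edgeR held in 21 of 24 alternatives. DESeq2 called 51, limma-voom 3 (Fau, Malat1 and Rps26, all lower) and the fit without plates 1, 2 and 3 called 1 (Avpi1, log2 fold change -4.08, adjusted p = 0.000988 by edgeR). Without the replicate block by plate 0 genes were called (178 with an unadjusted p under 0.05). The difference between origins gave 1 gene with no filter on low counts (Avpi1) and 0 elsewhere. The difference between tissues gave 1 gene with no filter and 1 with all cells summed (Ly6a in both), and leaving out 1 plate gave 0 to 7, with 7 without fetal liver plate 3 and 3 without plate 4 (Fyb, Gng11 and Ndufa2). The cause was not tested, and Avpi1, Rps26, Fyb, Gng11, Ndufa2 and Itga4 were named after their values were seen. Leaving out 1 plate left the bone marrow calls and the origin calls at 0 and moved the thinned difference in genes per cell between 39.1 and 119 and the Mki67 share difference between -1.27 and 2.44 points. Over 77 named genes, 44 kept the sign of their fold change in every alternative and 33 changed it in at least 1, none while called; 15 calls appeared, all by DESeq2 or limma-voom.

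Intervals of the fold change were widest for genes under 100 CPM, and the part of depth in this was not tested. The 5 plates from 2 origins, with no stated animals, are a further limit: an exact test over plates cannot pass 0.05. Procr at 0 UMIs is not absence of the transcript, and 71 positive cells rest on 1 UMI.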
